A study of Populus euphratica with 12 samples.

Results

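The predicted mature miRNAs of the Euphrates poplar, Populus euphratica, were examined in its 4 leaf shapes. They are the entries of the miRNA files that are named after a genome scaffold and carry no asterisk, 52 of the 257 miRNAs listed. Each was predicted from a hairpin precursor in the P. euphratica genome and has no family name. The other entries are 166 annotated miRNAs, named through miRBase, and 39 predicted star sequences, which come from the opposite arm of the same predicted precursors. The choice of members used only the names and no measured value.

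MicroRNAs (miRNAs) are short RNAs cut from a hairpin precursor. The mature strand is loaded into an Argonaute protein and guides it to complementary mRNAs, which in plants are usually cleaved, whereas the star strand is mostly degraded. Several conserved plant miRNA families act on transcription factors that set leaf growth and the passage from the juvenile to the adult phase. The targets of the 52 predicted miRNAs were not analysed here, so no role is given for any of them.

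Trees at Alar, Xinjiang, were the source of the second juvenile leaf of the bud, in its linear (Li), lanceolate (La), ovate (Ov) or broad-ovate (Bo) shape, with 3 biological replicates each and 12 small RNA libraries in all. Li leaves came from trees of 0 to 3 years, La leaves from trees of 4 to 6 years, Ov leaves from trees of 8 to 12 years and Bo leaves from trees over 20 years of age. Leaf shape and tree age therefore changed together and cannot be told apart. No treatment was applied. In a whole leaf, fewer cells that make a miRNA and less of it per cell cannot be told apart either. Values are in RPM, the reads on a miRNA scaled to a common total of reads on all listed miRNAs. The depth was 199583 (Bo1) to 632114 (Ov1) such reads. A single read was therefore 5.01 RPM in Bo1 and 1.58 RPM in Ov1. Where no read was counted, the true level can still reach 15.0 RPM in Bo1 or 4.75 RPM in Ov1, the worth of 3 reads, by counting error alone. The annotated ptc-miR159a alone took 30.8% to 40.0% of the reads of a library, and every other level was measured against that total. Groups were compared with limma on log2(RPM + 1) for 216 miRNAs whose mean reached 1 RPM, and a change was called at an adjusted p under 0.05 (Benjamini-Hochberg over the 216). All 52 predicted mature miRNAs passed that minimum.

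The precursors of the 52 miRNAs lay on 48 scaffolds of the PopEup_1.0 assembly, 28 on the plus and 24 on the minus strand. Their hairpins were 43 to 91 nt long, with a median of 71 nt. The median length was 80 nt for the 10 most abundant miRNAs and 67.5 nt for the others. Over the 52 precursors, length and mean level had a Spearman rho of 0.14, which is given as a description. Only 3 scaffolds held more than 1 precursor, 7 precursors in all. No 2 precursors on a shared scaffold lay within 10 kb of each other. The closest pairs are named after their positions were seen. The first was NW_011499850.1_2817 and NW_011499850.1_2972, 50.1 kb apart on opposite strands. The next was NW_011499895.1_11018 and NW_011499895.1_11020, 98.7 kb apart on the same strand. Distances could be measured only for the 5 pairs on a shared scaffold, and the annotated miRNAs have no position in the files used. Which genes lie at these positions was not analysed here.

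The predicted mature miRNAs were few in reads but steadily present. Together they held 7.10% of all reads, against 91.8% for the annotated miRNAs and 1.14% for the star sequences. Each of the 52 had reads in all 4 leaf types, and 0 were seen in only 1 leaf type. In comparison, 17 of the 166 annotated miRNAs and 14 of the 39 star sequences were seen in only 1 leaf type. At least 1 read in every library was found for 41 of the 52 (78.8%), 90 of the 166 annotated miRNAs (54.2%) and 10 of the 39 star sequences (25.6%). The median of the mean levels was 86.5 RPM for the predicted mature, 33.4 RPM for the annotated and 1.5 RPM for the star sequences. A miRNA is predicted from reads, however, whereas an annotated name comes from a database, so the classes did not enter the list in the same way. These differences were not tested.

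Levels within the 52 covered a wide range. The lowest mean over the 12 libraries was 5.33 RPM, for NW_011499975.1_17354, which had 22 reads in all and is named here after its values were seen. The highest was 24587 RPM, for NW_011499886.1_10127. Means of at least 10 RPM were found for 49 miRNAs, of at least 100 RPM for 24 and of at least 1000 RPM for 6. Between 48 (Bo1) and 52 (Li1 and Li3) of the 52 were detected per library, and the library with the fewest was also the shallowest. The 5 most abundant took 89.0% to 93.2% of the reads on predicted mature miRNAs in every library. The class was therefore a few strong miRNAs and a long tail of weak ones, as the map of levels shows.

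**Figure D1:**
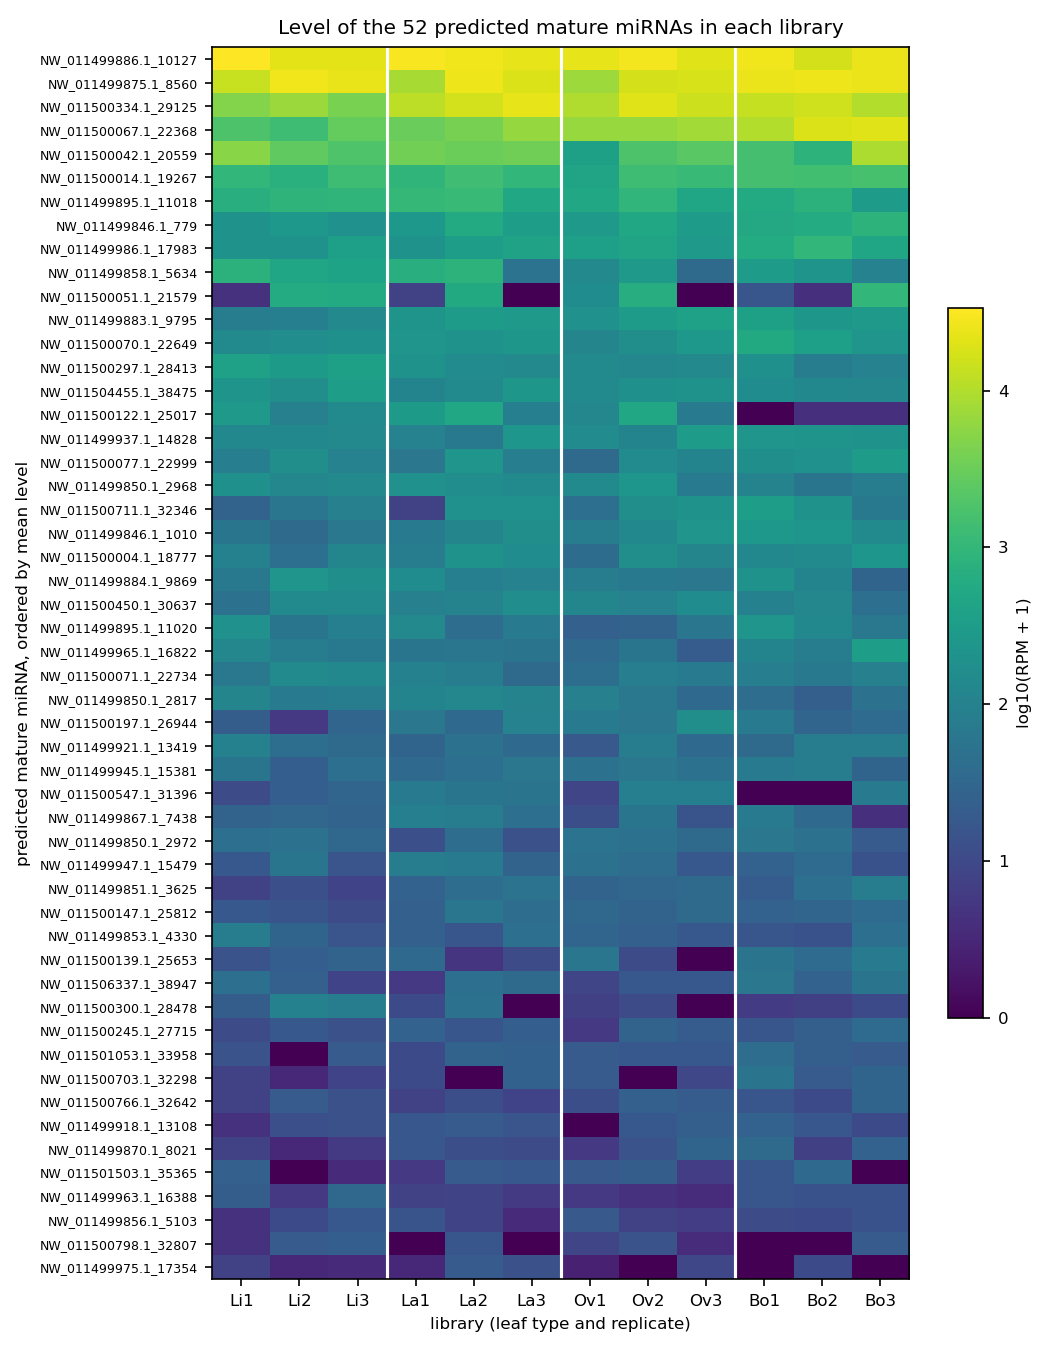
Level of each of the 52 predicted mature miRNAs (rows, ordered by mean level) in each of the 12 libraries (columns, 3 replicates per leaf type), as log10(RPM + 1). The top rows stay bright in every library, whereas NW_011500122.1_25017 is dark in the 3 Bo libraries and NW_011500051.1_21579 is dark in 6 libraries spread over the 4 leaf types.

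The most abundant member, NW_011499886.1_10127, changed little. Its precursor spans bases 836223 to 836308 of NW_011499886.1, plus strand. It was at 33434, 21489 and 21515 RPM in Li, 30131, 26682 and 22519 RPM in La, 22759, 27884 and 19768 RPM in Ov, and 27157, 17057 and 24644 RPM in Bo. All 4 leaf types overlapped, and its SD within leaf types, 0.30 on the log2 scale, was the smallest of the 52. The log2 fold change from Li to Bo was -0.15 (SE 0.27, limma adjusted p = 0.82), and it changed sign without Li1 (0.067) or without Bo2 (0.055).

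The second in level, NW_011499875.1_8560 (NW_011499875.1, 237078 to 237161, minus strand), had a mean of 19629 RPM. It was at 13658, 27021 and 24077 RPM in Li, 8689, 25794 and 19493 RPM in La, 7249, 17171 and 17843 RPM in Ov, and 24246, 25224 and 25084 RPM in Bo. The 3 Bo libraries were close to each other and above all Ov libraries. The first replicate was the lowest of each leaf type, by little in Bo. No pair of leaf types was called, and the smallest adjusted p was 0.33 (limma), for Bo against Ov.

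Other abundant members differed widely between replicates or missed the test. NW_011500042.1_20559 (NW_011500042.1, 64518 to 64592, minus strand) was at 5311, 2631 and 1870 RPM in Li, 3663, 3190 and 3447 RPM in La, 365, 1858 and 2314 RPM in Ov, and 1543, 844 and 9143 RPM in Bo. Its lowest values were in Ov1 and Bo2 and its highest in Bo3, so that Bo leaves covered nearly the whole range. The change from Li to Bo was -0.38 (log2, SE 0.80, limma adjusted p = 0.83) and changed sign without Li1 (0.042) or Bo2 (0.34).

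NW_011500014.1_19267 (NW_011500014.1, 218710 to 218773, plus strand) was at 993, 737 and 1296 RPM in Li, 900.3, 1392 and 975 RPM in La, 445, 1311 and 1144 RPM in Ov, and 1573, 1444 and 1620 RPM in Bo. The 3 Bo libraries were above the 9 others, but the change from Li to Bo, 0.65 on the log2 scale (SE 0.42), was not called (limma adjusted p = 0.41). NW_011499895.1_11018 had a mean of 732 RPM and a range of 317 to 1179 RPM, with all 4 leaf types overlapping. NW_011499858.1_5634 (NW_011499858.1, 912472 to 912557, minus strand) was at 797, 451 and 424 RPM in Li, 719, 825 and 50.9 RPM in La, 136, 265 and 36.3 RPM in Ov, and 311, 221 and 100.5 RPM in Bo. Li lay above Ov and above Bo without overlap, and the limma adjusted p was 0.17 for Ov against Li and 0.41 for Bo against Li.

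The share of reads on predicted mature miRNAs was higher in Bo than in Li leaves. Li1, Li2 and Li3 gave 6.49%, 6.51% and 6.12%. The values were 6.36%, 8.45% and 8.01% for the replicates of La, 5.06%, 8.10% and 6.81% for those of Ov and 8.42%, 8.47% and 9.67% for those of Bo. The widest 95% Wilson interval was that of Bo1, 8.30% to 8.55%, and these intervals cover counting error only, since the reads have no molecular identifiers. Averaged over 3 replicates, Li leaves had 6.38% ± 0.220, La leaves 7.61% ± 1.10, Ov leaves 6.66% ± 1.52 and Bo leaves 8.86% ± 0.708 (SD). Li and Bo did not overlap, whereas La and Ov each reached down to or under the Li values. No test was run on this sum.

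A single miRNA made up much of that difference. The mean share of NW_011500067.1_22368 was 0.201% for Li, 0.446% for La, 0.712% for Ov and 1.65% for Bo. Without it the other members held 6.18% ± 0.294 of the Li reads and 7.21% ± 0.565 of the Bo reads (SD, n = 3). The Li libraries then lay between 5.84% and 6.38% and the Bo libraries between 6.57% and 7.64%, still without overlap. These shares still include NW_011500334.1_29125, whose mean was 5338 RPM in Li and 13064 RPM in Bo. They were not recomputed without it, so they do not show a rise of the other members as a body.

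**Figure D2:**
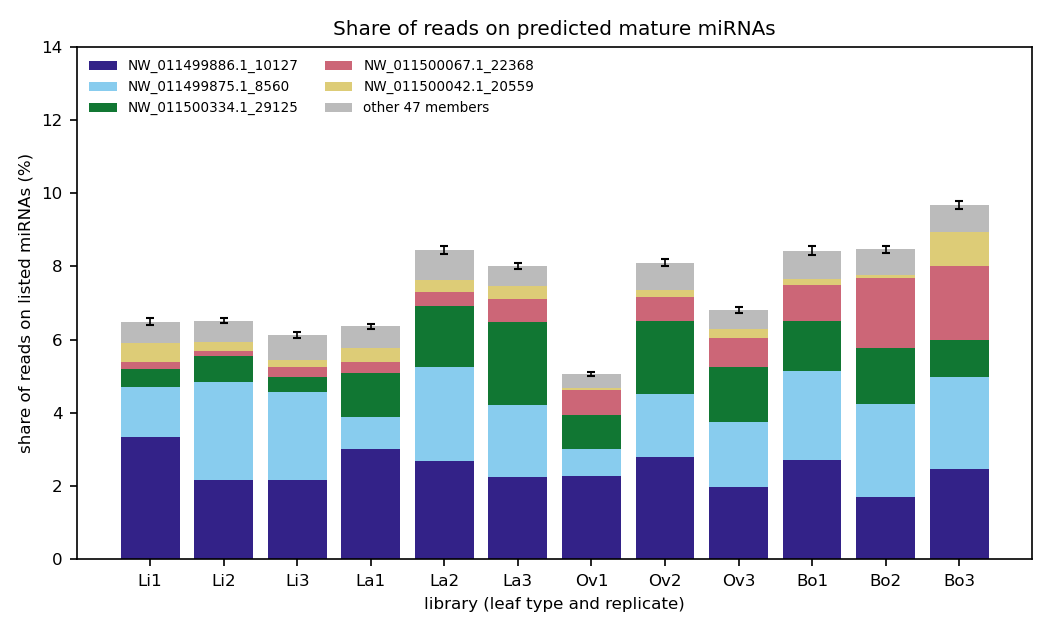
Share of the reads on listed miRNAs (%) taken by the predicted mature miRNAs in each library, with the 5 most abundant drawn separately and the other 47 in grey; error bars are 95% Wilson intervals of the whole share. The Bo bars (8.42% to 9.67%) stand above the Li bars (6.12% to 6.51%), and the segment of NW_011500067.1_22368 is widest in Bo.

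From Li to Bo leaves, the pair at the ends of the series of shapes and of tree ages, 8 of the 52 predicted mature miRNAs were called. This is 15.4%, against 12.5% of all 216 miRNAs tested. Of the 8, 6 were higher in Bo (11.5% of the 52, against 7.41% of all tested) and 2 were lower (3.85%, against 5.09%). The share among predicted miRNAs was thus near that among all miRNAs. At an unadjusted p under 0.05, limma gave 13 of the 52 (25%, against 22.2%). The Li and Bo values of 22 of the 52 did not overlap (42.3%, against 31.5%), 15 higher in Bo (against 19%) and 7 lower (against 12.5%).

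The count of 8 depended on the scaling. The median log2 fold change from Li to Bo over all tested miRNAs was 0.09 as deposited, -0.13 with RLE scaling and -0.10 with TMM scaling, and that of the 52 was 0.38, 0.14 and 0.17. With either scaling 3 of the 52 were called, NW_011500067.1_22368 higher and NW_011500122.1_25017 and NW_011500297.1_28413 lower, while the adjusted p of the other 5 moved to between 0.055 and 0.075. The split of 6 higher and 2 lower became 1 higher and 2 lower. Leaving out a library also lowered the count, to 2 without Li1 or Bo2, 3 without Li2 or Li3, 4 without Bo1 and 5 without Bo3.

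NW_011500067.1_22368 rose over the series of leaf shapes, by 8.22-fold from Li to Bo. The 78 nt precursor spans bases 59999 to 60076 of NW_011500067.1, plus strand. Levels were 1844, 1333 and 2848 RPM in Li, 3140, 3918 and 6318 RPM in La, 6776, 6674 and 7915 RPM in Ov, and 10101, 19004 and 20295 RPM in Bo. No leaf type overlapped the next, so that the 12 libraries stood in the order Li, La, Ov and Bo. On the log2(RPM + 1) scale the change was 3.04 (SE 0.37, limma adjusted p = 7.88e-05) from Li to Bo, 1.89 (SE 0.37, adjusted p = 0.014) from Li to Ov and 1.88 (SE 0.37, adjusted p = 0.0073) from La to Bo. The neighbouring steps, 1.16 from Li to La, 0.73 from La to Ov and 1.15 from Ov to Bo, had adjusted p-values of 0.14, 0.95 and 0.17 (limma). The call from Li to Bo held with every library left out in turn. The call from Li to Ov was lost without Li2 (adjusted p = 0.088) or Ov3 (0.083), and that from La to Bo without La1 (0.051) or Bo2 (0.057).

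NW_011500122.1_25017 was nearly absent from Bo leaves. The 69 nt precursor spans bases 327843 to 327911 of NW_011500122.1, plus strand. It had 84, 39 and 58 reads in Li, 129, 131 and 37 reads in La, 77, 151 and 25 reads in Ov, and 0, 1 and 1 reads in Bo. The 9 other libraries ranged from 69.8 to 507 RPM, and the 3 Bo libraries from 0 to 3.16 RPM, within what a count of 0 allows. On the log2(RPM + 1) scale the change was -5.90 (SE 0.88, limma adjusted p = 0.00038) from Li to Bo, -6.52 (adjusted p = 0.00045) from La to Bo and -5.99 (adjusted p = 0.0023) from Ov to Bo. These fitted values depend on the amount added before the logarithm, since Bo held 2 reads in all. The ratio of the pooled reads, scaled to depth, was 66.3 for Li over Bo (95% exact interval 18.1 to 552), 111 for La over Bo (30.5 to 921) and 82.0 for Ov over Bo (22.5 to 680.5), counting error only. Li, La and Ov overlapped each other. The 3 calls held in all 23 alternatives, among them each library left out in turn.

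NW_011500334.1_29125 was lower in Li than in the 3 other leaf types. The 82 nt precursor spans bases 87284 to 87365 of NW_011500334.1, minus strand. It was at 4876, 6952 and 4186 RPM in Li, 12040, 16622 and 22892 RPM in La, 9492, 19917 and 14971 RPM in Ov, and 13553, 15519 and 10120 RPM in Bo. The highest Li library was under the lowest of the 9 others, while La, Ov and Bo overlapped. The log2 change was 1.67 from Li to La (SE 0.34, limma adjusted p = 0.019), 1.44 from Li to Ov (adjusted p = 0.042) and 1.30 from Li to Bo (adjusted p = 0.031). These calls were close to the threshold. That to La was lost without Li3 (adjusted p = 0.11), La2 (0.059) or La3 (0.098). That to Bo was lost without Li1 (0.078), Li3 (0.093), Bo1 (0.077) or Bo2 (0.12). That to Ov was lost without any single library of Li, without Ov2 or Ov3 and without any single library of Bo, with an adjusted p between 0.052 and 0.12.

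The 4 other miRNAs called higher in Bo than in Li had lower levels than NW_011500067.1_22368 and NW_011500334.1_29125. Their calls were also close to the threshold. NW_011499846.1_1010 (NW_011499846.1, 4033217 to 4033279, minus strand) was at 57.4, 35.1 and 65.1 RPM in Li, 73.5, 112 and 175 RPM in La, 80.7, 128 and 226 RPM in Ov, and 261, 234 and 138 RPM in Bo. All La, Ov and Bo libraries were above all Li libraries, and the log2 change from Li to Bo was 1.98 (SE 0.55, limma adjusted p = 0.033). The call was lost without Li1 (adjusted p = 0.076), Li2 (0.15), Li3 (0.057), Bo1 (0.11) or Bo2 (0.13).

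NW_011499846.1_779, on the same scaffold and opposite strand (5387605 to 5387691), was at 206, 262 and 190.4 RPM in Li, 262, 575 and 322 RPM in La, 267, 497 and 315 RPM in Ov, and 531, 600.3 and 841 RPM in Bo. The Bo libraries were above those of Li and Ov but overlapped with La, and the log2 change from Li to Bo was 1.56 (SE 0.43, limma adjusted p = 0.033). Leaving out any single Li or Bo library ended the call, with an adjusted p of 0.083, 0.082 and 0.092 without Li1, Li2 and Li3, and 0.051, 0.11 and 0.095 without Bo1, Bo2 and Bo3. Both precursors are 1354 kb apart.

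NW_011499851.1_3625 (NW_011499851.1, 1282057 to 1282116, minus strand) had only 2, 5 and 3 reads in Li, 11, 11 and 21 in La, 17, 9 and 13 in Ov, and 4, 14 and 26 in Bo. In RPM the 3 Li libraries (6.75 to 11.7) were under the 9 others (20.0 to 81.6), and the log2 change from Li to Bo was 2.20 (SE 0.64, limma adjusted p = 0.034). The call was lost without Li1 (adjusted p = 0.0996), Li2 (0.089), Li3 (0.099), Bo2 (0.13) or Bo3 (0.12), and also with a pseudocount of 0.1 (0.052), with no filter on low values (0.059) or with the 6 Li and Bo libraries alone (0.085).

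NW_011499883.1_9795 (NW_011499883.1, 632567 to 632643, plus strand) was at 81.0, 88.9 and 135 RPM in Li, 220.5, 298 and 279 RPM in La, 193, 313 and 379.6 RPM in Ov, and 371, 243 and 276 RPM in Bo. Here too Li was under the 9 others, while La, Ov and Bo overlapped. The log2 change from Li to Bo was 1.55 (SE 0.43, limma adjusted p = 0.033), and it was no longer called without Li1 (adjusted p = 0.099), Li2 (0.12), Bo1 (0.11), Bo2 (0.095) or Bo3 (0.073).

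NW_011500297.1_28413 was the other miRNA called lower in Bo. Its precursor (NW_011500297.1, 159247 to 159292, plus strand) is 46 nt long. It was at 382, 285 and 366 RPM in Li, 211, 153 and 133 RPM in La, 141, 124 and 131 RPM in Ov, and 185, 82.1 and 100.5 RPM in Bo. Every Li library was above the 9 others. The log2 change from Li to Bo was -1.56 (SE 0.44, limma adjusted p = 0.034), and the call was lost without Li1 (adjusted p = 0.099), Li2 (0.089), Li3 (0.097), Bo2 (0.17) or Bo3 (0.0895).

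**Figure D3:**
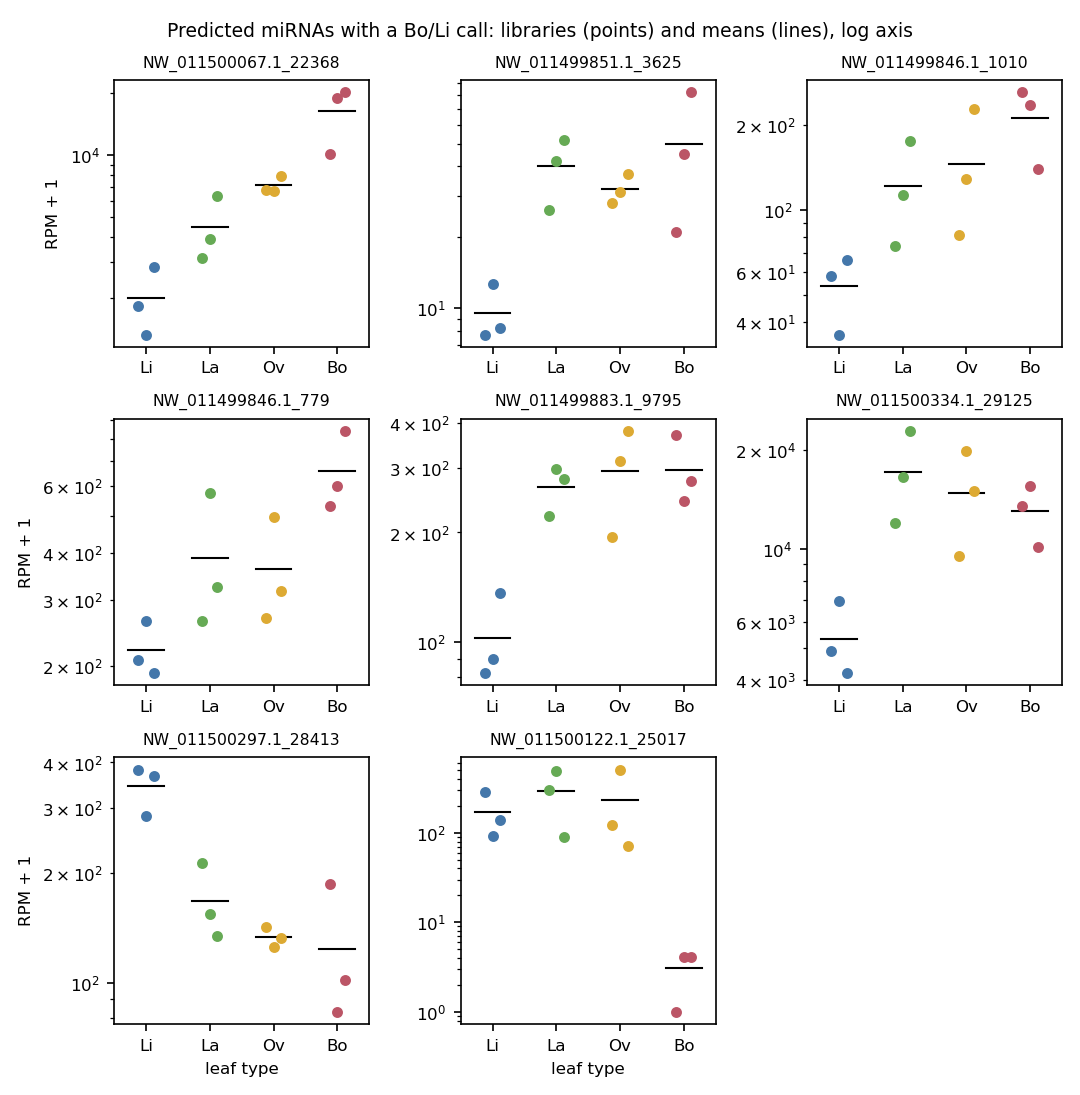
RPM + 1 (log axis) of the 8 predicted mature miRNAs called between Bo and Li, by leaf type; points are libraries (3 per leaf type) and lines are means. NW_011500067.1_22368 climbs from Li to Bo, NW_011499883.1_9795 and NW_011500334.1_29125 are low in Li, and NW_011500122.1_25017 is low in the 3 Bo libraries.

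The other pairs of leaf types gave few calls. Between La and Li, 1 of the 52 was called (1.92%, against 1.85% of all tested), and between Ov and Li there were 2 (3.85%, against 4.17%). These were NW_011500334.1_29125 in both pairs and NW_011500067.1_22368 between Ov and Li. Between Bo and La, 2 of the 52 were called (3.85%, against 3.7%), and between Bo and Ov 1 (1.92%, against 2.78%). Between Ov and La, limma called 0 of the 52 (against 0% of all tested), and 0 passed an unadjusted p under 0.05 (against 1.85%). Deviations of same-numbered La and Ov libraries from their group means had correlations of 0.25, 0.52 and 0.50, so these libraries were taken as paired. That pairing was read from the values only, since the labels give none and the trees differed in age. With the replicate as a block over all 12 libraries, 0 passed the adjusted and 2 the unadjusted threshold. These were NW_011500067.1_22368 (0.73 on the log2 scale, limma adjusted p = 0.95) and NW_011499858.1_5634 (-1.50, adjusted p = 0.95). That block also covered Li and Bo, for which the numbers were not taken as paired. With only the 6 La and Ov libraries and the block, 0 passed the adjusted threshold. Comparisons against the same leaf type share its 3 libraries and are not independent. At an unadjusted p under 0.05, limma gave 8 of the 52 for La and Li (against 14.8% of all tested), 11 for Ov and Li (against 23.1%), 6 for Bo and La (against 13%) and 9 for Bo and Ov (against 14.4%). A library decided several of the adjusted counts. The La and Li count was 0 without Li3, La2 or La3. The Ov and Li count was 0 without Li2 or Ov3 and 1 without Li1, Li3, Ov2, Bo1, Bo2 or Bo3. The Bo and La count was 1 without La1 or Bo2, and the Bo and Ov count was 2 without Bo3.

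Over the 4 leaf types at once, 3 of the 52 differed (5.77%, against 5.09% of all tested). They were NW_011500122.1_25017 and NW_011500067.1_22368 (adjusted p = 0.00047 each, moderated F test of limma) and NW_011500334.1_29125 (0.023). At an unadjusted p there were 11 (against 23.1%). The next were NW_011499883.1_9795 (0.086) and NW_011499851.1_3625 (0.13). The smallest p between Bo and Ov after that of NW_011500122.1_25017 belonged to NW_011499965.1_16822 (chosen after its values were seen), with 22, 17 and 7 reads in Ov and 22, 26 and 109 reads in Bo (log2 change 2.07, adjusted p = 0.11). In all, 8 of the 52 were called in at least 1 pair (15.4%, against 13.9% of all tested).

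Group means stood in strict order from Li to Bo for 10 of the 52 (against 18.1% of all tested), 9 rising and 1 falling. With an adjusted Bo and Li call there were 4 (against 7.41%), namely NW_011500067.1_22368, NW_011499846.1_1010 and NW_011499883.1_9795, which rose, and NW_011500297.1_28413, which fell. For NW_011499883.1_9795 the Ov and Bo means were nearly equal, 295 ± 94.5 and 297 ± 66.2 RPM (SD), so their order lies within the spread. The count of 4 became 1 without Li1, Li2 or Bo2 and 2 without Li3, Ov3, Bo1 or Bo3. With an unadjusted p under 0.05 there were 6 (against 11.6%), the added members being NW_011499986.1_17983 and NW_011499870.1_8021. NW_011499986.1_17983 (NW_011499986.1, 139308 to 139384, minus strand) was at 213, 203 and 354 RPM in Li and 611, 989 and 458 RPM in Bo, without overlap (log2 change 1.39, SE 0.45, limma adjusted p = 0.059). NW_011499870.1_8021 (NW_011499870.1, 1727127 to 1727178, minus strand) had only 2, 1 and 2 reads in Li and 7, 2 and 8 in Bo (1.84, adjusted p = 0.20).

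Some predicted miRNAs split the replicates of a leaf type, and those described here were chosen after their values were seen. A miRNA was taken as split where a replicate had at most 3 reads and another of the same leaf type at least 20. This held for 4 of the 52 predicted mature miRNAs (7.69%), 4 of the 166 annotated miRNAs (2.41%) and 1 of the 39 star sequences (2.56%), a difference that was not tested. NW_011500051.1_21579 (NW_011500051.1, 133853 to 133924, minus strand) was split in all 4 leaf types. It had 1, 257 and 240 reads in Li, 3, 147 and 0 in La, 98, 198 and 0 in Ov, and 3, 1 and 312 in Bo. There were thus 6 libraries with 98 to 312 reads and 6 with 0 to 3, and none between. Its SD within leaf types was 4.45 on the log2 scale, the largest of the 52, and its limma adjusted p was 0.68 or more in every pair.

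The same 6 libraries (Li2, Li3, La2, Ov1, Ov2 and Bo3) were also the 6 highest in reads for NW_011500798.1_32807, a weak miRNA on another scaffold (NW_011500798.1, 53335 to 53416, plus strand). It had 4 to 9 reads in them and 0 or 1 in the others. No other of the 257 miRNAs had these 6 as its highest, and 0 had them as its lowest. The labels give nothing that separates these 6 libraries from the other 6.

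The 3 other split miRNAs were split in 1 leaf type each. NW_011500547.1_31396 (NW_011500547.1, 125870 to 125929, plus strand) had 3, 9 and 12 reads in Li, 30, 15 and 22 in La, 5, 26 and 32 in Ov, and 0, 0 and 24 in Bo. Bo3 alone was as high as La. With all libraries the log2 change from La to Bo was -3.82 (limma adjusted p = 0.24) and from Ov to Bo -3.29 (adjusted p = 0.32). Both passed the threshold without Bo3, at -5.91 (adjusted p = 0.0016) and -5.37 (adjusted p = 0.0045). Bo3 held all the Bo reads, so its removal leaves Bo at 0 reads, the size is then set by the 1 RPM added, and these values are no support for a difference. NW_011500139.1_25653 had 37, 3 and 0 reads in Ov, and NW_011500711.1_32346 had 3, 52 and 79 reads in La. At levels of at least 100 RPM, the median SD within leaf types was 0.57 on the log2 scale both for the 24 predicted mature and for the 70 annotated miRNAs.

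**Figure D4:**
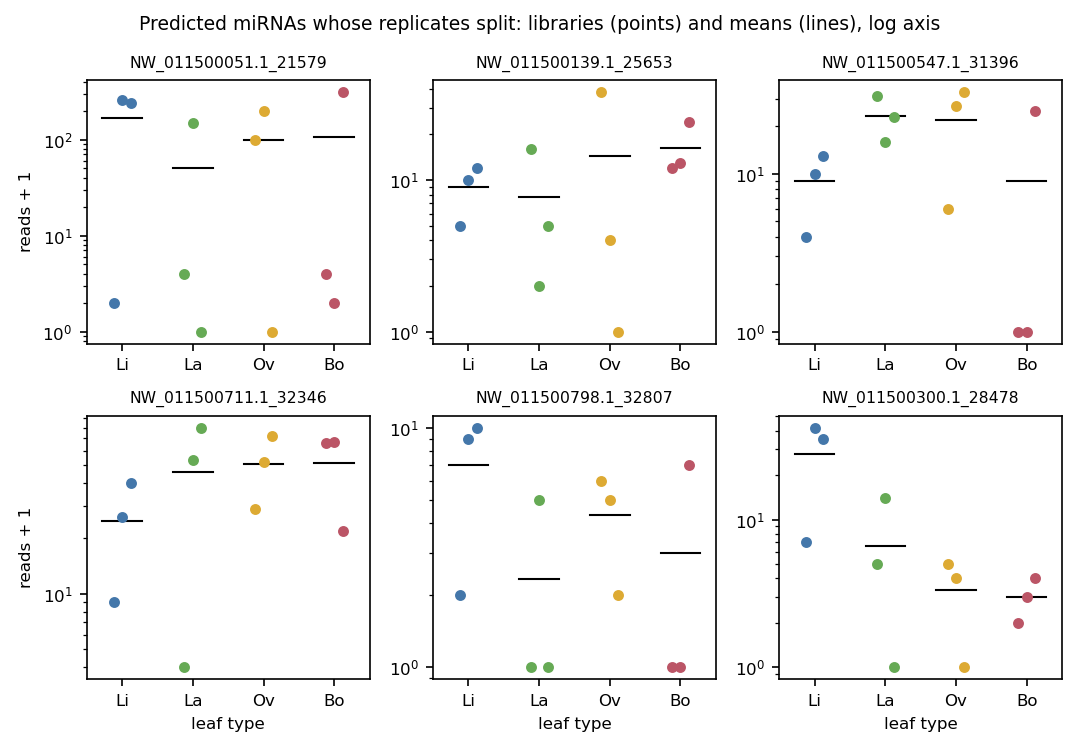
Reads + 1 (log axis) by leaf type of the 4 predicted mature miRNAs whose replicates split and of 2 weaker ones, NW_011500798.1_32807 and NW_011500300.1_28478; points are libraries and lines are means. For NW_011500051.1_21579 each leaf type holds libraries at 3 reads or fewer and libraries at 98 reads or more. The 2 weaker ones were chosen after their values were seen.

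For 39 of the 52 precursors the star sequence was listed too. The mature strand had more reads in 37 of them, with a median star share of 1.39% of the reads of both arms. The arms were named when the miRNAs were predicted from reads, so this count is no independent result on arm use. In 17 precursors the star had 3 reads or fewer, and in 11 it had 1 read, so the arm ratio was poorly measured for these. The 13 precursors with no star entry had a median of 77 mature reads, against 503 for the 39.

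The named star had more reads than the mature strand in 2 precursors, in 12 of 12 libraries each (chosen after their values were seen). For NW_011500147.1_25812 (NW_011500147.1, 171855 to 171920, plus strand) the mature strand had 125 reads over the 12 libraries and the star 7125, or 98.3% (95% Wilson interval 97.9% to 98.6%), and the star share of a library was 96.6% to 99.4%. For NW_011499947.1_15479 (NW_011499947.1, 93670 to 93752, minus strand) they had 168 and 1728 reads, or 91.1% star (89.8% to 92.3%), with 72.1% to 96.3% per library. In these precursors the arm called mature was thus the minor one in reads. How reads matching several miRNAs were shared out is not given, so these shares may not be the arm use of the precursor. The star of NW_011500147.1_25812, at a mean of 1632 RPM, was above all but 5 of the predicted mature miRNAs.

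Other precursors gave both arms in quantity. Over the 12 libraries together the star share was 39.4% for NW_011499850.1_2968 (chosen after its values were seen). It ranged from 13.3% in Bo3 to 58.5% in La2, and the star was above the mature strand in La2 and in Li1 (57.6%). The pooled share was 26.4% for NW_011499986.1_17983, with 15.9% to 39% per library, and 19.1% for NW_011499886.1_10127, with 14.3% to 28.8%. It was steady for NW_011499875.1_8560, at 9.75% to 12.3% in the 12 libraries.

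The arms of NW_011500334.1_29125 did not keep a fixed ratio over the leaf types. The star share was 13.2%, 16.9% and 13.0% in Li, 9.26%, 6.92% and 4.37% in La, 4.28%, 5.64% and 5.78% in Ov, and 7.62%, 7.53% and 9.21% in Bo. The 3 Li libraries were above the 9 others. The star itself was at 739, 1410 and 624 RPM in Li and 1117, 1264 and 1027 RPM in Bo, which overlapped (log2 change 0.38, SE 0.43, limma adjusted p = 0.63), while the mature strand rose. The difference between the arms was not tested. The shift of NW_011500334.1_29125 was picked out after the star shares were seen, and it was not the only one. For NW_011500147.1_25812 the Li shares (99.1%, 99.1% and 99.4%) were also above the 9 others, which reached at most 98.7% (La3). NW_011504455.1_38475 went the other way, with a mean star share of 10.7% ± 4.11 in Li and 20.7% ± 2.92 in Bo (SD, n = 3), without overlap. These shifts were not tested either. For NW_011500297.1_28413 both arms were lower in Bo than in Li (star -4.53 on the log2 scale, SE 1.26, limma adjusted p = 0.033, from 18, 22 and 21 reads in Li and 0, 0 and 4 in Bo). The mean star level was 54.3 RPM in Li and 4.19 RPM in Bo. With so few Bo reads the fitted size depends on the 1 RPM added. How the star call depends on single libraries was not examined here. For NW_011500067.1_22368 the star had 23 reads over the 12 libraries against 30921 for the mature strand, too few to follow the rise.

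**Figure D5:**
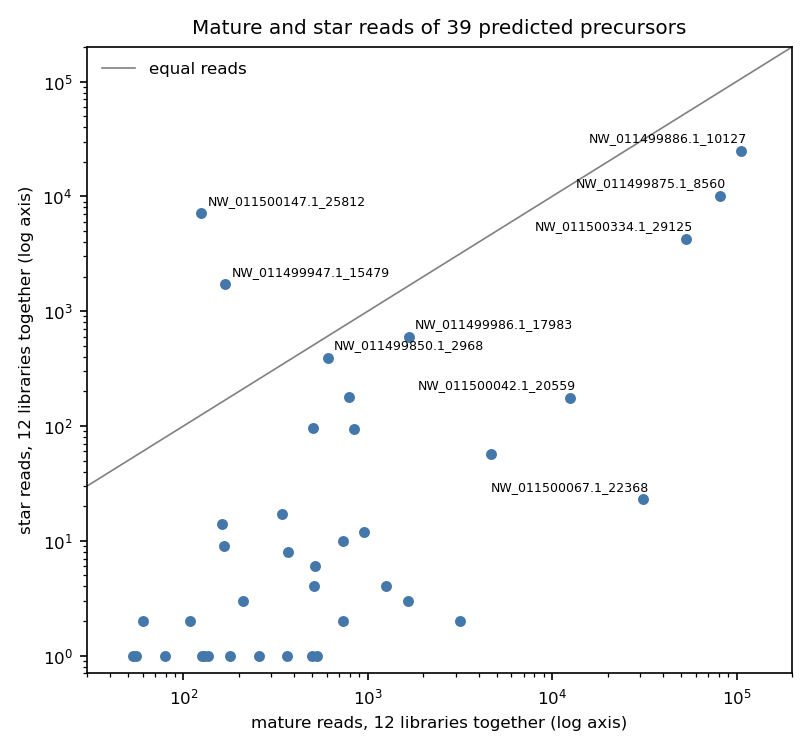
Reads of the mature strand (x, log axis) and the star strand (y, log axis) of the 39 predicted precursors with a star entry, over the 12 libraries together; the line marks equal reads. Only NW_011500147.1_25812 and NW_011499947.1_15479 lie above the line.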

How the data were processed

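Small RNA libraries of 12 leaf samples were analysed; other RNA classes of the study were not used here. The authors matched reads to miRBase v.21 without mismatch, predicted further miRNAs with miRDeep2 and deposited normalised values, named TPM, for 257 miRNAs per sample. The deposited values are RPM: the sum is the same for each sample, and every value was a whole multiple of the smallest, within 0.001, from which reads were inferred. Read counts and counting intervals rest on that step, for which each library had only 76 to 93 miRNAs at 1 to 20 reads. For trimming, tool versions and how reads matching several miRNAs were shared out, the methods used are not given in the sources read.

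Members and lists were chosen with earlier results of these data known. The miRNAs named are those with a call in any pair or over the 4 leaf types, the 10 with the highest mean, the smallest p of each pair, the 5 smallest F test p-values and those with ordered means and an unadjusted Bo and Li p under 0.05, and any others are said to be chosen after seeing values. Groups were taken from the sample labels.

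Tests used limma 3.58.1 (R 4.3.3) with a variance trend on log2(RPM + 1), 216 miRNAs, all 12 libraries in a single model with a mean per leaf type, 2-sided. The planned count model was not run, because these low values were too few to accept the inferred reads as counts. Tables and figures were made with Python 3.11.15, numpy 2.4.6, pandas 2.3.3, scipy 1.17.1 and matplotlib 3.10.9.

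No library was a copy of another (lowest chi-square per degree of freedom 30.2 in 66 pairs). The deviations of same-numbered La and Ov libraries from their group means had correlations of 0.25, 0.52 and 0.50, so these libraries were taken as paired, a pairing read from the values only; in the other pairs of leaf types not all 3 were over 0.1. Alternatives were other pseudocounts, filters, scalings, a replicate block, no variance trend, only 6 libraries and each library left out. The p-values measure the spread between 3 replicates per leaf type.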

Additional observations from a re-analysis of the deposited data

How the results depend on the processing

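Of 14 called changes of a predicted mature miRNA between leaf types, 0 reversed and 4 stayed called in all 23 alternatives, namely NW_011500067.1_22368 from Li to Bo and NW_011500122.1_25017 from Li, La and Ov to Bo; 10 were lost without at least 1 library. Over 54 changes and all alternatives (1242 comparisons), 5 reversed, 72 lost the call and 10 gained it. The reversals were Bo and Li changes with no call (log2): NW_011499875.1_8560 at -0.038 without Li1 (-0.038 to 0.45 over the libraries left out), NW_011499886.1_10127 at 0.067 without Li1 and 0.055 without Bo2 (-0.28 to 0.067), and NW_011500042.1_20559 at 0.042 and 0.34 without the same libraries (-1.38 to 0.34).

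Counts moved as follows. With an unadjusted p, limma gave 8 (La/Li), 11 (Ov/Li), 13 (Bo/Li), 6 (Bo/La), 9 (Bo/Ov) and 11 (4 leaf types). La/Li was 0 without the variance trend and with its 6 libraries alone. Ov/Li was 1 with a pseudocount of 10, with ptc-miR159a out of the total and with 6 libraries, 4 with a filter of 10 RPM and 0 without the trend. Bo/Li was 3 with RLE or TMM scaling.

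With the replicate number as a block, Ov/Li rose from 2 to 5, adding NW_011500197.1_26944 (2.57, adjusted p = 0.029), NW_011499883.1_9795 (1.51, 0.046) and NW_011499858.1_5634 (-2.27, 0.046), although the numbers did not pair Ov with Li; Ov/La had 0 adjusted and 2 unadjusted. With 6 libraries and that block, added after seeing the data like the unadjusted blocked count, La/Li was 0, Ov/Li 2 and Bo/Li 3. Other counts moved by less than 1.5 times under the block. NW_011500197.1_26944 is named here after its values were seen.

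Leaving out each library gave 0 to 1 (La/Li), 0 to 2 (Ov/Li), 2 to 8 (Bo/Li), 0 to 0 (Ov/La), 1 to 3 (Bo/La), 1 to 2 (Bo/Ov), 2 to 4 (4 leaf types) and 1 to 5 (ordered), and shares of 6.31% to 6.5% in Li, 7.18% to 8.23% in La, 5.94% to 7.46% in Ov and 8.45% to 9.07% in Bo. Shares in Li, La, Ov and Bo were 3.83%, 4.96%, 4.31% and 6.56% without NW_011499886.1_10127, and 9.89%, 12.4%, 10.4% and 13.7% with ptc-miR159a out of the total. At least 10 reads in every library were found for 21 members in place of 41, and 2 pairs of precursors lay within 100 kb in place of 0 within 10 kb. The causes of these shifts were not tested, except that fewer samples enter a fit without a library. Depth limits members at a few reads, such as NW_011499975.1_17354.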
